A study of Danio rerio with 2 samples.

Results

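During elongation each sense codon is read in the ribosomal A site by the tRNA whose anticodon pairs with it. The first anticodon base, at position 34 of the tRNA, faces the last base of the codon. The codons described here are those read by anticodons with G at that position, called G34 codons. They were taken from the authors' codon table by the anticodon alone, as every sense codon with a dwell time at both stages and an anticodon starting with G, so the rule sorts codons without using any measured value. This gave 16 of the 61 sense codons, read by 8 of the 45 elongator anticodons (those of tRNAs that extend a protein after its first methionine). For comparison, 16 codons were assigned to 8 anticodons starting with A (A34, which is converted to inosine in mature tRNAs), 14 codons to 14 anticodons starting with U (U34) and 15 codons to 15 anticodons starting with C (C34).

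The data came from wild-type embryos of the zebrafish strain TLAB (Danio rerio), grown without perturbation and collected at the bud stage (10 hours post fertilisation, hpf, the end of gastrulation) or at the sphere stage (4 hpf, a blastula). Each stage had 1 ribosome profiling library from 200 pooled whole embryos, lysed in a buffer with tigecycline and cycloheximide at 100 µg/ml each, which stop elongating ribosomes on the mRNA. Codon dwell time (DT) is the relative time a ribosome spends with a codon in its A site, on a linear scale around 1 on which a lower value means faster decoding. The share of the tRNA pool is the percent of tRNA reads assigned to an anticodon, deposited as a single value per stage, which the study describes as a mean over 2 tRNA libraries per stage outside those analysed here. With 1 footprint library per stage, DTs had no replicate error, and no test between stages and no p-value was computed. For DT it could not be determined whether a difference between the stages exceeded the variation between libraries. For the tRNA share the spread between the libraries behind each mean was not analysed here. The codon table holds no read numbers, so the depth behind each value is unknown, although the study's methods give more aligned footprints for bud than for sphere. Both stages were whole embryos, in which fewer cells of a type and less tRNA per cell cannot be told apart.

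A G34 anticodon here stands for all tRNAs that carry it. It pairs with a C-ending codon by Watson-Crick geometry and with a U-ending codon by a G to U wobble pair. The 2 codons of such a codon pair were assigned the same supply. Most such codon pairs sit in split boxes, in which the remaining codons with the same first 2 bases belong to another amino acid or are stop codons. In the tRNAs for Tyr, His, Asn and Asp, G34 can be exchanged for queuosine, a hypermodified guanosine. Animals make it from queuine, a base they obtain from diet and microbes and insert with the tRNA-guanine transglycosylase. Queuosine was not measured in these files, so the names of those tRNAs stand here for the anticodons that can carry it.

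The 8 anticodons and the codons they read are given below, 5′ to 3′, with the capital marking position 34 in the anticodon and the codon base that faces it. They are shown because the codons of a pair differ in sequence only at that base. Whether a DT difference within a pair comes from that contact was not tested.
Tyr tRNA: Gua, reading uaC and uaU
His tRNA: Gug, reading caC and caU
Asn tRNA: Guu, reading aaC and aaU
Asp tRNA: Guc, reading gaC and gaU
Phe tRNA: Gaa, reading uuC and uuU
Cys tRNA: Gca, reading ugC and ugU
Ser tRNA: Gcu, reading agC and agU
Gly tRNA: Gcc, reading ggC and ggU
The 4 anticodons that can carry queuosine, listed first, all have U as their middle base and read codons with A in the middle, so queuosine and the middle base cannot be told apart as a property of that subset. Gly is the only member whose box codes for a single amino acid throughout, and Gly and Ser are the only members with other tRNAs for the same amino acid.

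G34 codons were decoded at moderate to fast relative speeds at both stages, and none was among the slowest codons. Their DTs lay between 0.886 and 1.06 in bud and between 0.903 and 1.02 in sphere, a 1.198-fold range in bud and a 1.130-fold range in sphere. The DTs of the other 45 codons spanned 1.63-fold in bud and 1.60-fold in sphere. The standard deviation (SD) of log2 DT, a measure of spread over codons and not an error, was 0.074 for G34 codons and 0.19 for the other codons in bud. In sphere it was 0.049 for G34 codons and 0.18 for the others. The narrow spread was thus present in both libraries.

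The slowest G34 codon in bud was His-CAC with a DT of 1.06, which placed 18 of 61 from the slow end, next to Leu-CUG at 1.07. In sphere the slowest was Cys-UGC with 1.02, at place 23 and next to Arg-CGU, also at 1.02. A total of 17 other codons in bud and 22 in sphere were slower than every G34 codon. Those slower codons comprised 4 A34, 5 U34 and 8 C34 codons in bud, and 6 A34, 6 U34 and 10 C34 codons in sphere. At the fast end, the lowest DT in bud was that of Ser-AGC, 0.886, followed by Val-GUC at 0.878, and the lowest in sphere was that of Tyr-UAU, 0.903, followed by Ile-AUC at 0.902. The 5 codons in bud and the 6 in sphere that were faster than every G34 codon were all read by A34 anticodons. These neighbours differed by less than 0.01, which without replicates is no ranking.

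The median DT of G34 codons was 0.961 in bud and 0.971 in sphere, the lowest of the 4 classes at both stages when all their codons were counted. In bud the medians of the other classes were 0.989 for A34, 1.02 for U34 and 1.07 for C34 codons. In sphere they were 0.983 for A34, 1.01 for U34 and 1.08 for C34. A DT above 1 was found for 4 of the 16 G34 codons in bud and 5 in sphere, against 26 of the 45 other codons in both bud and sphere. The distance to the other codons was smaller among codons of similar tRNA supply, a comparison chosen after the values were seen. The median of G34 codons was 0.059 below that of all other codons in bud and 0.0465 below it in sphere. Against the 27 other codons whose tRNA share lay inside the G34 range at both stages, it was 0.017 below in bud and 0.025 below in sphere. Those 27 codons had medians of 0.979 in bud and 0.996 in sphere, and the 18 codons outside that range had medians of 1.11 in bud and 1.12 in sphere. Most of these 18 had shares below the range, but those of Lys-AAA and Glu-GAG lay above it in bud. All 16 A34 codons, which also end in C or U, fell inside that range of supply. Their SD of log2 DT was 0.17 in bud and 0.14 in sphere, wider than that of the G34 codons at similar supply. The 3 U34 codons in the range had medians of 0.954 in bud and 0.981 in sphere, below the G34 median in bud and above it in sphere, and an SD of log2 DT of 0.068 in bud and 0.057 in sphere, close to that of the G34 codons. The 8 C34 codons in the range had medians of 1.00 in bud and 1.01 in sphere.

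None of the G34 anticodons was among the scarcest anticodons. As a class, covering 16 of the 61 sense codons, they held less of the tRNA pool than C34 and more than A34 or U34 at both stages. Their summed share, counting each anticodon once, was 25.0% of tRNA reads in bud and 23.9% in sphere. In bud the sums for the other classes were 22.5% for A34, 22.8% for U34 and 27.0% for C34, and in sphere they were 22.9%, 23.0% and 26.9% for the same classes. Single G34 anticodons held 1.30% to 5.40% of reads in bud and 1.36% to 4.86% in sphere. Among the other anticodons, 15 in bud and 14 in sphere had a lower share than every G34 anticodon, and all of these started with U or C. The anticodons above every G34 member were 2 in bud and 1 in sphere. The median share per anticodon was 2.87% for G34, 2.80% for A34, 1.17% for U34 and 1.35% for C34 in bud, and 2.74%, 2.97%, 1.00% and 1.68% for the same classes in sphere. Each G34 or A34 anticodon was assigned 2 codons and each U34 or C34 anticodon 1, so these medians do not compare supply per codon.

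Tyr, decoded by the GUA anticodon, combined the best supplied G34 tRNA with the widest difference between its codons. The anticodon held 5.40% of tRNA reads in bud, place 3 of 45, and 4.86% in sphere, place 2. Tyr-UAU had a DT of 0.897 in bud and 0.903 in sphere, among the fastest codons of both libraries. Tyr-UAC, assigned to the same anticodon, had 1.04 in bud and 1.02 in sphere. The U-ending codon was therefore 14.0% below its C-ending partner in bud and 11.3% below it in sphere. The U to C log2 ratio of the Tyr pair was -0.22 in bud and -0.17 in sphere. The median absolute difference of a codon between the 2 libraries was 0.028 on the log2 scale over all 61 codons. That value compares the stages for single codons, so it is no replicate error and no error of a contrast between codons of the same library.

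His was the slow member of the class in bud. His-CAC had a DT of 1.06 in bud and 1.02 in sphere, and His-CAU had 1.01 in bud and 0.971 in sphere. Both codons were thus higher in bud by 4.48%, the largest upward difference among G34 codons. The GUG anticodon was the G34 member with the largest relative loss of tRNA share, with 3.42% of reads in bud and 3.81% in sphere, or 0.899 of its sphere share. The U-ending codon was 4.47% below the C-ending one in bud and 4.48% below it in sphere.

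Asn and Asp showed the opposite combination. The Asn GUU anticodon held 2.71% of tRNA reads in bud and 2.11% in sphere, a 1.29-fold higher share in bud that was the largest relative gain of the class. Its codons were slightly faster in bud, with DTs of 0.953 in bud and 0.982 in sphere for Asn-AAC and of 0.952 in bud and 0.971 in sphere for Asn-AAU. The Asp GUC anticodon held 4.56% in bud and 3.91% in sphere, 1.17-fold higher in bud. Asp-GAC had a DT of 0.981 in bud and 0.999 in sphere, and Asp-GAU had 0.945 in bud and 0.957 in sphere. All 4 codons were lower in bud, by 1.22% to 3.00%. The codons of Asn differed little from each other, with the U-ending one 0.094% lower in bud and 1.18% lower in sphere, whereas the Asp pair differed by 3.62% in bud and 4.16% in sphere in the same direction.

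The 4 anticodons that are not substrates for queuosine held a smaller summed share, and their shares differed less between the stages. Phe, whose tRNA is known in yeast and mammals for the bulky base wybutosine beside the anticodon, held 2.25% in bud and 2.33% in sphere with its GAA anticodon. Its codons were nearly equal, with DTs of 0.980 in bud and 0.970 in sphere for Phe-UUU and of 0.964 in bud and 0.967 in sphere for Phe-UUC. Phe was 1 of 2 members in which the U-ending codon was the slower one. The Cys GCA anticodon held 3.02% in bud and 3.00% in sphere, the smallest relative difference of the class. Cys-UGU nevertheless had a DT of 0.955 in bud and 1.00 in sphere, 4.77% lower in bud, while Cys-UGC was at 1.01 in bud and 1.02 in sphere.

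Ser and Gly are read by several tRNAs, of which the G34 tRNA supplied 29.3% of the Ser total in bud and 29.6% in sphere, and 36.8% of the Gly total in bud and 38.7% in sphere. The Ser GCU anticodon was the least abundant of the class, with 1.30% of all tRNA reads in bud and 1.36% in sphere. From the slow end of the 61 codons, Ser-AGC nevertheless held place 56 in bud and 48 in sphere. Ser-AGU was less far toward the fast end, at place 40 in bud and 44 in sphere. Ser-AGC had a DT of 0.886 in bud and 0.945 in sphere, and Ser-AGU had 0.959 in bud and 0.962 in sphere. The U-ending codon was thus 8.15% above its partner in bud and 1.82% above it in sphere, the largest shift of a pair between the libraries and the reverse of the order seen for most of the class. The other Ser codons had DTs of 0.968 for Ser-UCC, 0.979 for Ser-UCU, 0.980 for Ser-UCA and 1.33 for Ser-UCG in bud, and of 0.958, 0.966, 0.975 and 1.35 for the same codons in sphere. All 4 had higher DTs than Ser-AGC and Ser-AGU in bud, and in sphere Ser-UCC lay between them. Ser-UCC differed from Ser-AGU by less than 0.01 in both libraries, as did Ser-UCU in sphere, which without replicates is no order.

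The Gly GCC anticodon held 2.35% in bud and 2.49% in sphere, second to the UCC anticodon of Gly, which held 3.45% in bud and 3.49% in sphere. Gly-GGU had a DT of 0.901 in bud and 0.940 in sphere, and Gly-GGC had 0.999 in bud and 1.02 in sphere. The U-ending codon was 9.82% below the C-ending one in bud and 7.57% below it in sphere, the widest gap after that of Tyr. Among the Gly codons, Gly-GGG was the slowest with 1.04 in bud and 1.08 in sphere. Gly-GGA, read by the more abundant UCC anticodon, had 0.925 in bud and 0.931 in sphere. Gly-GGU thus had the lowest DT of the Gly codons in bud. In sphere Gly-GGA and Gly-GGU differed by less than 0.01, which without replicates is no order.

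Across the 8 pairs, the U-ending codon, read by wobble, was faster than the C-ending one in 6 pairs and slower in 2 (Phe and Ser), with the same sign in bud and in sphere for each pair. The sign of 2 pairs rests on a difference under 0.01 in 1 library, that of Asn in bud and that of Phe in sphere, which without replicates is no order. The log2 ratio, U-ending over C-ending DT, ranged from -0.22 to 0.11 in bud and from -0.17 to 0.026 in sphere. Between the libraries the ratio of a pair differed by a median of 0.027 and at most by 0.087, and the ratios of the 8 pairs correlated with Pearson's r = 0.952, a description over pairs that share a library. The 8 U-ending codons had a median DT of 0.953 in bud and 0.966 in sphere, and the 8 C-ending codons had medians of 0.990 in bud and 1.01 in sphere. The A34 pairs, in which inosine pairs with both bases, had the faster U-ending codon in 3 of 8 pairs in bud and in 3 of 8 in sphere, and 6 of the 8 kept their direction. Their ratios ranged from -0.17 to 0.11 in bud and from -0.10 to 0.079 in sphere, so the ranges of G34 and A34 pairs overlapped. The U-ending A34 codons had a median DT of 0.989 in bud and 0.991 in sphere, and the C-ending ones 1.00 in bud and 0.980 in sphere. A lower U-ending median thus also occurred in A34 in bud, but not in sphere. The difference between the classes was described and not tested.

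Within the class, the 4 pairs of possible queuosine carriers had log2 ratios below 0, although that of Asn was close to 0. Their median log2 ratio was -0.060 in bud and -0.064 in sphere. The other 4 pairs split evenly, with 2 below 0 and 2 above 0 in bud and in sphere, and medians of -0.026 in bud and -0.0097 in sphere. The ranges overlapped, from -0.22 to -0.0014 for the carriers and from -0.15 to 0.11 for the others in bud, and from -0.17 to -0.017 for the carriers and from -0.11 to 0.026 for the others in sphere. The absolute level differed little between these subsets, at a median DT of 0.967 for the carriers and 0.961 for the others in bud, and of 0.976 for the carriers and 0.968 for the others in sphere.

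Within the class, the higher share in bud lay in the possible queuosine carriers other than His. The summed share of all 4 carriers was 16.1% in bud and 14.7% in sphere, 1.10-fold or 1.41 percentage points higher in bud. Asp, Asn and Tyr were higher by 0.651, 0.605 and 0.536 points and His was lower by 0.385 points. The other 4 anticodons together held 8.92% in bud and 9.18% in sphere. Their shares differed between the stages by at most 0.136 points each. For the class as a whole the sum was 1.05-fold higher in bud, while that of A34 was 0.982, that of U34 0.988 and that of C34 1.01 times the sphere value. Gains larger than those of the carriers also occurred outside G34, such as 1.08 points for Lys-UUU, 0.992 for Glu-CUC and 0.889 for Lys-CUU. Of the 37 other anticodons, 16 were higher and 21 lower in bud. Single G34 anticodons split evenly, with 4 higher and 4 lower in bud. Asn-GUU was the only one of the 8 at least 1.2-fold higher in bud, against 22.2% of all 45 anticodons, and 0 of the 8 were at least 1.2-fold lower, also against 22.2% of all anticodons. The log2 change of share ranged from -0.15 to 0.36 within the class and from -0.84 to 0.91 over the other 37 anticodons. The shares of the 8 anticodons correlated between the stages with Pearson's r = 0.959. In their order, Asn lay below Gly and Phe in sphere and above both in bud, and the rest kept their order.

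DTs of G34 codons differed little between the stages. The median log2 of the bud to sphere ratio was -0.019, beside -0.0023 for the other codons and -0.0085 for all 61. The ratio was below 0 on the log2 scale for 12 of the 16 G34 codons and for 23 of the 45 others. Those others comprised 10 of 15 C34, 7 of 16 A34 and 6 of 14 U34 codons. The median was -0.025 for C34, 0.016 for A34 and 0.0081 for U34, so a lean to lower values in bud was also present in C34. These counts of lower codons took the sign alone, also for DT differences under 0.01 such as those of Ser-AGU, Tyr-UAU and Phe-UUC. A difference of at least 5% was found for 1 of the 16, Ser-AGC, which was 6.22% lower in bud, against 16.4% of all 61 codons in either direction and 9.84% of all codons in that direction. None of the 16 was higher in bud by 5%, against 4 of all 61 codons, and His-CAU and His-CAC came closest. The other differences ran from 4.77% lower (Cys-UGU) to 4.48% higher (His-CAU), and Gly-GGU, at 4.17% lower, also came near the limit.

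By sign alone, the codons of a pair mostly differed between the stages in the same direction. Both codons were lower in bud for 5 anticodons (Asn, Asp, Cys, Gly and Ser) and higher for 1 (His), while the codons of Tyr and Phe went opposite ways. Tyr-UAC was 2.54% higher in bud and Tyr-UAU 0.587% lower, and Phe-UUU was 1.02% higher and Phe-UUC 0.238% lower. The DTs of Ser-AGU, Tyr-UAU, Phe-UUC and Phe-UUU differed by less than 0.01 between the stages, which without replicates is no direction. Of the 8 A34 anticodons, 3 had codons that differed in the same direction, again by sign alone. Across the 16 G34 codons the DTs of the 2 libraries correlated with Pearson's r = 0.817, and across the 16 A34 codons with r = 0.981. The A34 codons spanned a wider range of DT, 1.401-fold in bud and 1.310-fold in sphere.

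Supply and dwell time were then set against each other, with the mean DT of both codons per anticodon. Over the other 37 anticodons the mean DT was higher where the inverse tRNA share was higher, with Pearson's r = 0.653 in bud and 0.528 in sphere and Spearman's rho = 0.575 in bud and 0.473 in sphere. Over the 8 G34 anticodons both coefficients had the opposite sign, with Pearson's r = -0.579 in bud and -0.437 in sphere and Spearman's rho = -0.476 in bud and -0.310 in sphere. The Ser anticodon had the lowest share of the class and the lowest mean DT, 0.922 in bud and 0.954 in sphere. Without Ser, r was -0.228 in bud and -0.0028 in sphere. Among the 8 A34 anticodons, Pearson's r was 0.171 in bud and -0.0875 in sphere and Spearman's rho was -0.048 in bud and -0.238 in sphere, so negative coefficients also occurred outside G34. In bud the best supplied members were not the fastest, as Tyr had a mean DT of 0.970 and His, with the third largest G34 share, had 1.04. In sphere His had 0.993 and Tyr had 0.960. That Tyr value was less than 0.01 above the Ser value, which without replicates is no order. These coefficients describe anticodons measured in the same libraries, and the values of G34 cover a narrower range of shares than those of the other anticodons.

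For the change between the stages, the mean DT and the tRNA share differed in opposite directions for 5 of the 8 G34 anticodons and for 27 of the 37 others. The G34 anticodons with opposite directions were Asn, Asp and Cys, with more tRNA and lower DT in bud, and His and Phe, with less tRNA and higher DT. Gly and Ser were lower in both, and Tyr was higher in both. The counts took each difference by its sign, however small. The Cys share differed by 0.021 percentage points and the Phe mean DT by 0.0038, so neither direction is settled. Pearson's r between the linear difference in mean DT, bud minus sphere, and the log2 change in share was -0.302 over the 8 anticodons, and Spearman's rho was -0.048. Without His, r was 0.135, so its sign rested on that anticodon.

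Finally, each G34 pair was compared with the remaining sense codons that share its first 2 bases. Of the 7 boxes with such codons, the mean DT of the G34 pair was below the mean of its neighbours in 4 in bud and in 5 in sphere. A neighbour mean can join a fast and a slow codon. The largest distance was that of Phe, with a mean DT of 0.972 in bud and 0.968 in sphere, against 1.202 in bud and 1.163 in sphere for the Leu codons of its box. Those Leu codons are read by scarce tRNAs, with 0.450% of reads in bud and 0.582% in sphere for the anticodon of Leu-UUA and 0.212% in bud and 0.333% in sphere for that of Leu-UUG. The Cys pair averaged 0.980 in bud and 1.01 in sphere, against 1.14 in bud and 1.15 in sphere for Trp-UGG. The Cys anticodon held 3.02% of reads in bud and 3.00% in sphere, and the Trp anticodon 2.84% in bud and 2.32% in sphere. How supply relates to these distances was not tested.

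The Ser pair was also faster than the Arg codons of its box, at 0.922 against 1.00 in bud and 0.954 against 1.01 in sphere. The Gly pair averaged 0.950 against 0.981 for the other Gly codons in bud and 0.978 against 1.01 in sphere. Of those other codons, only Gly-GGG was slower than the pair, with 1.04 in bud and 1.08 in sphere. Gly-GGA was faster than the pair mean, with 0.925 in bud and 0.931 in sphere. The His and Asp pairs were slower than the mean of their box neighbours in both libraries. The His pair averaged 1.04 against 0.960 for the Gln codons in bud and 0.993 against 0.966 in sphere. The Asp pair averaged 0.963 against 0.944 for the Glu codons in bud and 0.97785 against 0.9684 in sphere. The Asp distance in sphere was under 0.01, which without replicates is no order. Single neighbours of these 2 pairs differed. Glu-GAG had 0.892 in bud and 0.949 in sphere, below the Asp pair. Glu-GAA had 0.996 in bud, above the Asp pair, and 0.987 in sphere, within 0.01 of it. Gln-CAG had 0.905 in bud and 0.926 in sphere, below the His pair. Gln-CAA had 1.01 at both stages, below the His pair in bud and above it in sphere. The Asn pair was on different sides in the 2 libraries, with 0.952 against 0.935 for the Lys codons in bud and 0.976 against 0.992 in sphere. Lys-AAA and Lys-AAG were 5.61% and 5.83% lower in bud than in sphere, more than Asn-AAC at 3.00% and Asn-AAU at 1.94%. The Tyr box holds no other sense codon.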

How the data were processed

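The deposited codon table gives dwell times as ratios on a relative linear scale, which the authors estimated with Scikit-ribo from 1 footprint library per stage, with matched RNA-seq and without RNA folding terms, after alignment with STAR 2.6.1c. It gives tRNA proportions as a fraction of tRNA reads per anticodon, which the authors obtained with mim-tRNAseq in separate libraries and repeated for every codon an anticodon reads, wobble codons included. Neither value has a deposited error, and on a relative scale a shift shared by every codon would not be seen.

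The table had 62 rows, and 1 initiator row without dwell times was left out. It held 2.68% of tRNA reads in bud and 3.34% in sphere. Codons were translated with the standard code, written with U, and grouped by the first anticodon base. Proportions were multiplied into percent and counted once per anticodon. Medians, ranges, counts, log2 ratios and correlations were computed with Python 3.11.15, pandas and SciPy, and checked on simulated data. The limits for a difference were 5% for dwell times and 1.2-fold for proportions. No test was run. All 16 codons and 8 anticodons are named, and other codons only as synonymous, same-box or adjacent ones. The members and comparisons were chosen with earlier results of these data known. The deposited footprint table per transcript was not used, since no table here pairs its transcript IDs with gene symbols.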

Additional observations from a re-analysis of the deposited data

How the results depend on the processing

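No paired analysis was possible because bud and sphere had 1 library each, so no library was left out either. Values were compared with a yardstick of the SD over members divided by the square root of their number, counts and shares with a factor of 1.5, and correlations with a step of 0.2. These are not errors, and staying inside them is no sign of stability. Of 72 alternatives, 54 stayed inside, 15 moved and 3 changed sign, with the linear difference between U-ending and C-ending codons judged by sign alone. The 7 chosen after seeing the data were the comparison sets of the dwell time difference, its division by the geometric mean and the rescaled count of anticodons past 1.2-fold.

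Division of each library by the geometric mean over all codons set the G34 median dwell time to 0.942 in bud and 0.947 in sphere, by construction. The distance to the other codons became -0.017 in bud and -0.025 in sphere at similar tRNA supply, and -0.028 in bud and -0.013 in sphere against A34 codons alone. Limits of at least 3% and 8% gave 6 and 0 of the 16 codons in place of 1, against 39.3% and 3.28% of all 61 codons. The median log2 change in tRNA share, -0.021, was 0.050 as a mean and 0.040 relative to the median over all anticodons, so it has no settled direction. With 16 codons in place of 8 anticodons, the correlation of dwell time with inverse share was -0.376 in bud and -0.233 in sphere. Leaving out each anticodon in turn gave -0.788 to -0.228 in bud, -0.724 to -0.0028 in sphere and -0.429 to 0.135 for the changes, for which Spearman's rho was -0.048. The cause of these moves was not tested. The median over box neighbours could not differ from the mean, since no box had over 2. The 2 alternatives on footprints of tRNA enzymes were not run.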
